A study of Mus musculus with 10 samples.

Results

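Genes of cholesterol synthesis and its control were followed in mice that received transferred T cells: 7 enzymes (Hmgcs1, Idi1, Fdps, Fdft1, Sqle, Lss and Cyp51) and the regulator Insig1. They were taken by name, with earlier results of these data known, and all 8 of 8 were among the 19505 genes measured and the 13393 genes tested. No receptor for cholesterol uptake is among them, so uptake genes are described from a separate list. Transcripts were measured on 10 single-colour Affymetrix arrays of total RNA, and each array is 1 sample. CD4+ T cells of the strain C57BL/10, labelled WT, carried either GFP alone as the control or oncogenic Vav1, an activated form of a protein that relays T cell receptor signals. The cells were placed in immunocompromised mice and examined after 6 months. From the spleen there were 2 arrays with GFP and 4 with oncogenic Vav1, and from the lymph node 2 arrays with each construct. The labels do not say which Vav1 change or promoter was used, the age of the animals, which cells the hosts still had, or whether animals were pooled. Sample names give 7 animals, of which 3 (CTL2, ONCO2 and ONCO3) gave both tissues.

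Cells build cholesterol from acetyl-CoA through mevalonate, isoprenoids, squalene and lanosterol. SREBP2, a membrane-bound transcription factor, switches on nearly every enzyme of this route when sterols are scarce, and INSIG proteins hold it in the endoplasmic reticulum when sterols are plentiful. Activated T cells are known to raise sterol synthesis before they divide, and developing red cells and fat cells also use the route.

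Values are log2 levels made by the authors with RMA, so a difference of 1 is a doubling. The 40th percentile of each array lay between 5.64 and 5.84, and a level under it is called near background. Fits were made with limma across all tested genes, changes are given with their standard error (SE), and a change is called at a Benjamini-Hochberg adjusted p under 0.05. The labelled cell type is CD4+ T cells, but B cell transcripts were abundant on every array: Cd79a, a B cell receptor chain, lay between 10.0 and 11.9, and Cd4 between 8.02 and 9.62. Since several cell types were read together, a smaller share of a cell type and less RNA per cell cannot be told apart in any result here.

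Promoter sequences are shown for Hmgcs1 and Insig1, the 2 genes whose response to the construct differed between tissues. Each runs from 250 bases before to 50 bases after the start site on the strand of the gene, from RefSeq (GRCm38.p6). Hmgcs1 is at chr13:119690101-119690400 (plus strand) and Insig1 at chr5:28071162-28071461 (plus strand). Capitals mark the letters TCACNCCAC, a core of the sterol regulatory element that SREBP binds, and CCAAT, the box bound by its partner NF-Y, on either strand.
Hmgcs1: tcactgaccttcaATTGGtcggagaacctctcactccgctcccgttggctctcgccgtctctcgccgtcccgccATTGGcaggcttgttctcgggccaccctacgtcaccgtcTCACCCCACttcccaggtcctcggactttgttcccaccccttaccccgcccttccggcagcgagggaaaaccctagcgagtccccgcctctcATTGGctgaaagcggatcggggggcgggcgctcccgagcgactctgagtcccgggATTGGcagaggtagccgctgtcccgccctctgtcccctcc
Insig1: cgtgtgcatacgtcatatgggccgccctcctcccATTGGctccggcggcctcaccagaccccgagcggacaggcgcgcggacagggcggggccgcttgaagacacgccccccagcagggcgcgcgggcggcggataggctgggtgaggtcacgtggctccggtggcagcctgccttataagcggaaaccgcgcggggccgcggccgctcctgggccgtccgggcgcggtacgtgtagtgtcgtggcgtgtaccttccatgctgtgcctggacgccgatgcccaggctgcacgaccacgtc
Promoters matched for 5 of the 8 genes (Hmgcs1, Insig1, Cyp51, Lss and Idi1). The sterol element letters were found in 1 of these 5, Hmgcs1, where they began at position -137 from the start site, and in 1.24% of 32851 promoters. CCAAT was found in 5 of 5 and in 37.4% of all promoters. The GC box GGGCGG, read on both strands and not marked in capitals, was found in 5 of 5 and in 35.7%. A match is a description of the letters in this window.

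In the spleen, cholesterol synthesis enzymes were higher with oncogenic Vav1. Of the 8 genes, 6 rose, none fell and 2 did not pass, against 17.1% of all tested genes higher and 9.77% lower. The median change of the 8 was 0.66, while that of all tested genes was 0.00. The 6 were Fdps, Hmgcs1, Cyp51, Sqle, Fdft1 and Lss, with folds from 1.31 to 1.94. The arrays of the groups did not overlap for 7 of the 8 genes, all higher with oncogenic Vav1, as for 30.3% of tested genes, while 25.2% did not overlap and were lower.

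Among the mevalonate and isoprenoid enzymes, Hmgcs1, which makes HMG-CoA, was at 8.42 and 8.60 in the GFP spleen and at 9.50, 9.26, 8.95 and 9.41 in the oncogenic Vav1 spleen. All 4 oncogenic Vav1 arrays lay above both GFP arrays, by at least 0.35. The limma change was 0.77 (SE 0.20, adjusted p = 0.020), a fold of 1.71. Fdps, which makes farnesyl diphosphate, the branch point to sterols and to protein prenylation, was at 6.34 and 6.15 with GFP and at 7.15, 7.37, 7.01 and 7.28 with oncogenic Vav1. It had the largest change of the 8 in the spleen (0.96, SE 0.18, limma adjusted p = 0.0042), and the gap between its groups was 0.67. Idi1, which interconverts the isoprenoid building blocks, was at 7.23 and 7.13 against 7.98, 8.20, 7.30 and 8.04. Its groups were separated by 0.08 alone, because oncogenic Vav1 replicate 3 lay near the GFP arrays. Its change of 0.70 (SE 0.25, limma adjusted p = 0.058) did not pass, and without replicate 3 it was 0.89 (adjusted p = 0.0095).

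The enzymes from squalene onward had the same direction. Fdft1, which commits the route to sterols by making squalene, was at 8.06 and 8.11 with GFP and at 8.92, 8.67, 8.32 and 8.70 with oncogenic Vav1 (change 0.57, SE 0.17, limma adjusted p = 0.032). Sqle, the oxygen-using and often rate-limiting squalene epoxidase, was at 6.32 and 6.25 against 7.00, 7.11, 6.43 and 7.04 (change 0.61, SE 0.20, limma adjusted p = 0.045). Replicate 3 again lay nearest to GFP for both, and Sqle groups were separated by 0.11. Lss, which closes the ring to lanosterol, was at 7.67 and 7.75 against 8.18, 8.11, 8.01 and 8.10. That change was small, 0.39 (SE 0.11, limma adjusted p = 0.030), and its arrays spread little within each group. Cyp51, which removes a methyl group from lanosterol, was at 7.64 and 7.57 against 8.64, 8.48, 7.98 and 8.40 (change 0.77, SE 0.21, limma adjusted p = 0.023). Insig1, the brake on SREBP and itself an SREBP target, was at 8.13 and 8.19 with GFP and at 8.33, 8.10, 7.96 and 8.27 with oncogenic Vav1. Its groups overlapped, and its limma change was 0.00 (SE 0.13, adjusted p = 0.99).

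**Figure D1:**
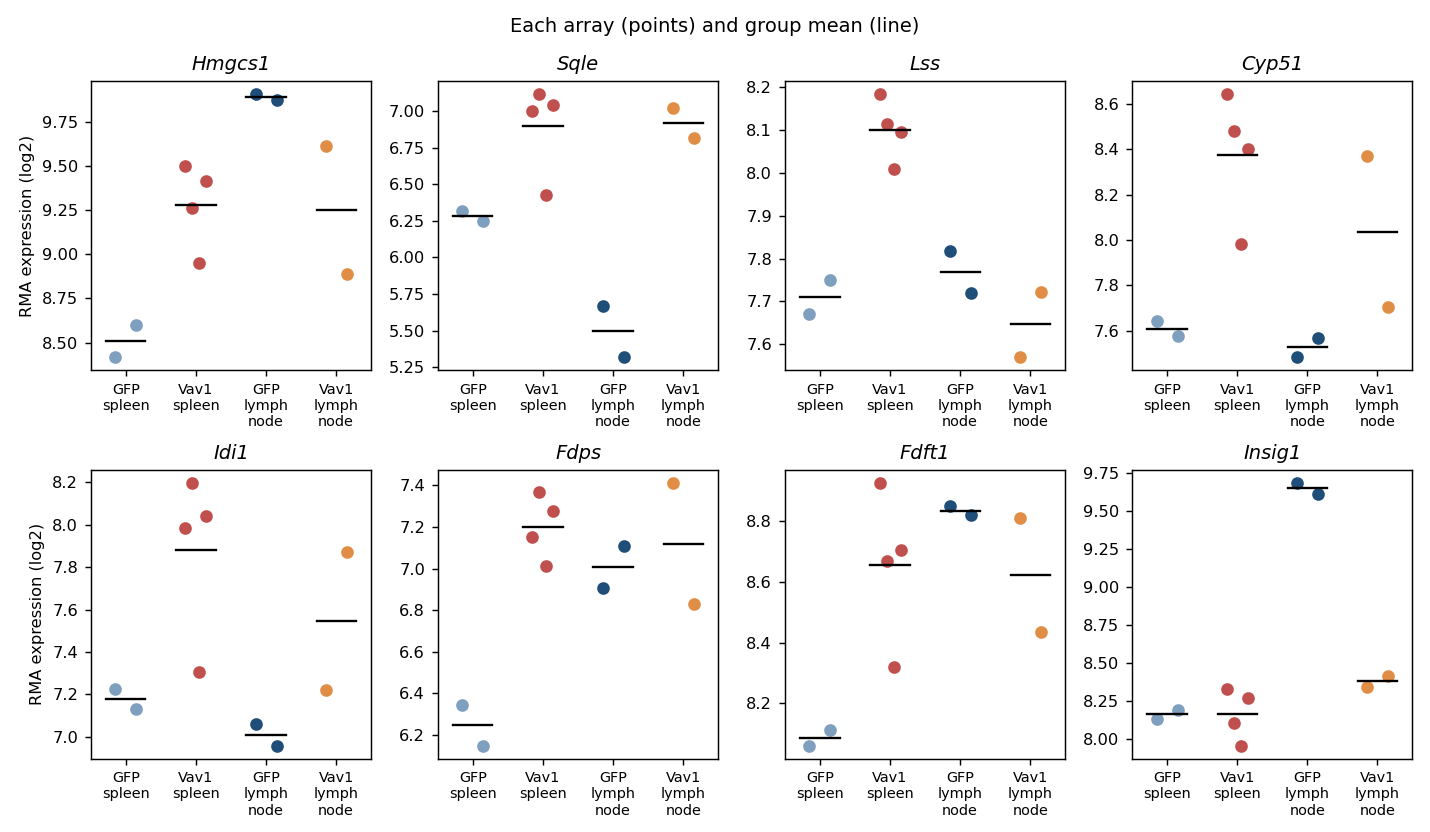
RMA expression (log2) of each of the 8 genes on each array, as points, with the group mean as a line, for GFP and oncogenic Vav1 (Vav1) in spleen and lymph node; each panel has its own scale. In the spleen 7 genes have every oncogenic Vav1 array above both GFP arrays, while Insig1 stands at 9.68 and 9.61 in the GFP lymph node and at 8.41 or lower elsewhere.

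The spleen count rested on both GFP arrays and on most oncogenic Vav1 arrays. It was 1 of 8 (Fdps) without GFP replicate 1, GFP replicate 2 or oncogenic Vav1 replicate 1, 2 (Fdps and Hmgcs1) without oncogenic Vav1 replicate 2, and 3 (Fdps, Hmgcs1 and Cyp51) without replicate 4. The share of all tested genes called in either direction, 26.8% in the full fit, moved as well, to 8.13%, 13.8%, 17.4%, 17.5% and 22.3% in these 5 fits. Limma adjusted p of the 5 genes lost was 0.12 to 0.17 without GFP replicate 1, 0.070 to 0.18 without GFP replicate 2 and 0.055 to 0.10 without oncogenic Vav1 replicate 1. Leaving out a lymph node array cannot move a spleen change in this model, so only the fits without a spleen array bear on its size. The changes themselves moved little, for Fdps between 0.86 and 1.05 and for Hmgcs1 between 0.68 and 0.88 over the 10 fits that each left out an array. Fdps passed in each of these 10 fits. The median of the intronic control probe sets was higher on the GFP spleen arrays (5.87 and 5.69) than on the oncogenic Vav1 spleen arrays (5.43 to 5.55). With that value as a covariate 0 of 8 genes passed, against 6.84% of all tested genes, with Hmgcs1 at 0.06, Cyp51 at 0.14, Fdft1 at 0.13 and Fdps at 0.53 (limma adjusted p = 0.86, 0.74, 0.73 and 0.21).

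Oncogenic Vav1 spleen replicate 3, from the animal ONCO3, had the lowest value of its group for 8 of the 8 genes. That array was the lowest of the 4 for 32.0% of tested genes. Its distance from the mean of the other 3 arrays was -0.77 for Idi1, -0.62 for Sqle, -0.53 for Cyp51, -0.45 for Fdft1 and -0.44 for Hmgcs1, and smallest for Lss at -0.12. The median over the 8 genes was -0.44, against -0.02 over all tested genes. The highest value of the group fell on replicate 1 for 5 genes and on replicate 2 for 3. Replicate 3 also had the lowest mean of 23 proliferation genes in its group (9.06, against 9.21 to 9.69). Its intronic control median was the highest of the group (5.55, against 5.43, 5.45 and 5.44). The part of either in the low sterol values was not tested. In the lymph node the array of the same animal, oncogenic Vav1 replicate 2, lay below replicate 1 for 5 of the 8 genes, as for 56.9% of tested genes. There Idi1 was higher by 0.65 in that array, while Hmgcs1 was lower (-0.72).

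The 8 genes did not move together in the lymph node. Sqle rose and Insig1 fell with oncogenic Vav1, and 6 did not pass, against 7.87% of tested genes higher and 10.8% lower. The median of the 8 was 0.00 and that of all tested genes -0.02. Arrays of the groups did not overlap for 3 genes higher with oncogenic Vav1 (Sqle, Cyp51 and Idi1) and 3 lower (Insig1, Hmgcs1 and Fdft1), against 24.2% and 28.8% of tested genes.

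Sqle was at 5.67 and 5.32 in the GFP lymph node and at 7.02 and 6.82 with oncogenic Vav1. The lowest oncogenic Vav1 array lay 1.15 above the highest GFP array. The change was 1.42 (SE 0.23, limma adjusted p = 0.0020), a fold of 2.68. Both GFP values were near background, so the size of this change depends on the background level. Insig1 was at 9.68 and 9.61 with GFP and at 8.34 and 8.41 with oncogenic Vav1, a gap of 1.20 between the groups. It fell by 1.27 on the log2 scale (SE 0.15, limma adjusted p = 0.00029), a level 2.41-fold lower. Sqle changed by 1.25 to 1.60 and Insig1 by -1.31 to -1.23 over the 10 fits that left out an array. Leaving out a spleen array cannot move these estimates in this model, so the ranges come from the fits without a lymph node array. Of the 8 genes, these 2 passed in the lymph node in the full fit.

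Hmgcs1 was at 9.91 and 9.87 with GFP and at 9.61 and 8.89 with oncogenic Vav1, a change of -0.64 (SE 0.24, limma adjusted p = 0.088). Cyp51 was at 7.48 and 7.57 against 8.37 and 7.70 (0.51, limma adjusted p = 0.18). Idi1 was at 7.06 and 6.96 against 7.22 and 7.87 (0.54, limma adjusted p = 0.23). In each of these the GFP arrays were close together and the oncogenic Vav1 arrays were not, and each gene was separated between groups by 0.26 or less. Fdps was at 6.90 and 7.11 against 7.41 and 6.83 (0.11, limma adjusted p = 0.76), and its groups overlapped. Fdft1 was at 8.85 and 8.82 against 8.81 and 8.43 (-0.21, limma adjusted p = 0.51), a separation of 0.01. Lss was at 7.82 and 7.72 against 7.57 and 7.72 (-0.12, limma adjusted p = 0.58). Without oncogenic Vav1 lymph node replicate 1 the count was 4 of 8 (34.7% of all tested genes, against 18.7% in the full fit), with Hmgcs1 at -1.001 (limma adjusted p = 0.0013) and Idi1 at 0.86 (adjusted p = 0.030). Without replicate 2 Cyp51 was at 0.84 (adjusted p = 0.015). With 1 array left in a group, the fit assumes that it varies like the other groups.

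**Figure D2:**
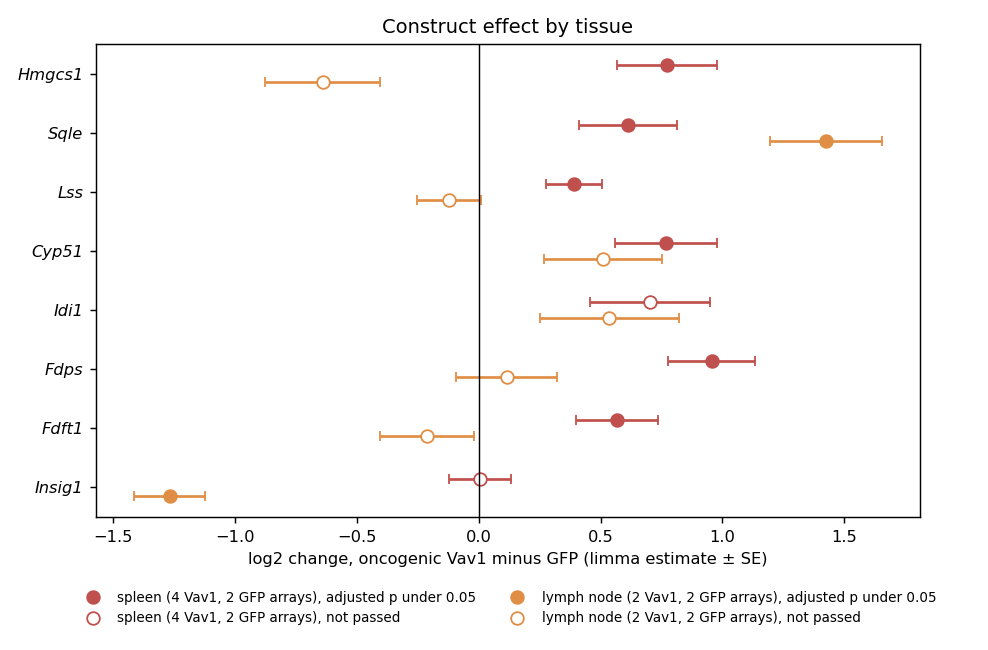
Limma log2 change (oncogenic Vav1 minus GFP) with its SE for each gene in spleen and in lymph node, with filled points for adjusted p under 0.05. The 7 enzymes lie right of 0 in the spleen, whereas in the lymph node Sqle lies at 1.42 and Insig1 at -1.27 and the other 6 did not pass.

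The construct effect differed between the tissues for Hmgcs1 and Insig1, by a limma interaction test with the animal as a random block. The lymph node effect minus the spleen effect was -1.43 for Hmgcs1 (SE 0.33, adjusted p = 0.025) and -1.29 for Insig1 (SE 0.20, adjusted p = 0.0035). So 2 of 8 genes were lower in this difference and 0 higher, against 7.11% and 0.933% of tested genes. Insig1 passed on leaving out each of the 10 arrays, with values of -1.37 to -1.21. For Hmgcs1 the call was lost, leaving a count of 1, in 6 such fits: without either GFP spleen array (limma adjusted p = 0.10 and 0.068 for replicates 1 and 2), either GFP lymph node array (0.12 and 0.088), or replicate 1 (0.058) or 4 (0.057) of the oncogenic Vav1 spleen. With the intronic control covariate Hmgcs1 was at -0.75 (adjusted p = 0.077). The count was 4 without oncogenic Vav1 lymph node replicate 1, where Fdft1 and Fdps also passed. It was 6 without both arrays of ONCO3. The share of all tested genes called was 31.4% and 20.4% in those fits and 2.87% to 5.97% in the 6 fits that lost Hmgcs1, against 8.04% in the full fit. In the full fit Fdft1 (-0.80), Fdps (-0.84), Lss (-0.52) and Sqle (0.79) had limma adjusted p of 0.10, 0.10, 0.11 and 0.16. Cyp51 (-0.27, SE 0.34) and Idi1 (-0.19, SE 0.37) had similar estimates in both tissues, with wide errors.

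Over both tissues, in an additive limma model of construct and tissue, 4 genes rose and 1 fell, against 17.4% of tested genes higher and 14.3% lower. These values come from the same arrays as those of the single tissues. Sqle rose by 0.97 (SE 0.17, adjusted p = 0.0017), Cyp51 by 0.62 (SE 0.16, adjusted p = 0.014), Idi1 by 0.61 (SE 0.15, adjusted p = 0.011) and Fdps by 0.56 (SE 0.17, adjusted p = 0.027), while Insig1 fell by 0.58 (SE 0.18, adjusted p = 0.032). Idi1 thus passed here and in neither tissue alone. The model takes the construct effect to be the same in both tissues, which the interaction test did not show for Insig1 and Hmgcs1. The Insig1 value combines a change of 0.00 in the spleen with -1.27 in the lymph node. That of Hmgcs1 combines 0.77 with -0.64. Fdft1 (0.20), Lss (0.16) and Hmgcs1 (0.12) did not pass, with limma adjusted p of 0.36, 0.22 and 0.70. Without GFP spleen replicate 1 the count was 1 (Sqle), and 15.8% of all tested genes passed, against 31.7% in the full fit. Insig1 also did not pass without GFP lymph node replicate 1 or 2 (limma adjusted p = 0.077 and 0.16) or without the animal block (0.094). Fdps did not pass without GFP spleen replicate 2 (0.091), oncogenic Vav1 spleen replicate 2 (0.066) or oncogenic Vav1 lymph node replicate 1 (0.066).

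Between lymph node and spleen, with the construct in the same additive limma model, 0 of the 8 genes passed, against 0.164% of tested genes. The largest estimates, lymph node minus spleen, were 0.75 for Insig1 (SE 0.23, adjusted p = 0.17) and 0.55 for Hmgcs1 (SE 0.29, adjusted p = 0.39). With array weights 20.5% of all tested genes passed and 5 of the 8, Insig1 (1.21), Hmgcs1 (1.08), Fdps (0.62), Fdft1 (0.57) and Sqle (-0.63). Within animals that gave both tissues, Insig1 was higher in the lymph node by 1.48 in the GFP animal CTL2, by 0.24 in ONCO2 and by 0.46 in ONCO3. Hmgcs1 differed by 1.46, 0.35 and -0.06 in the same animals, and Sqle by -0.99, -0.09 and 0.39. The GFP animal thus stood apart from both oncogenic Vav1 animals for these 3 genes.

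The order of the 4 group means fell into 3 patterns. For Hmgcs1, Fdft1 and Insig1 the GFP lymph node was highest and the GFP spleen lowest. For Insig1 the 2 spleen groups overlapped and were level, with a change of 0.00 between them. Hmgcs1 in both oncogenic Vav1 groups lay between, and those groups overlapped. For Fdft1 the GFP lymph node overlapped the oncogenic Vav1 spleen. For Sqle, Cyp51 and Idi1 both GFP groups were lowest, with the GFP lymph node under the GFP spleen, and both oncogenic Vav1 groups overlapped each other. Idi1 in the oncogenic Vav1 lymph node (7.22 and 7.87) also overlapped the GFP spleen (7.23 and 7.13). For Lss and Fdps the oncogenic Vav1 spleen was highest, and for Lss it was clear of every other group, while for Fdps it overlapped both lymph node groups. The distance from the lowest to the highest group mean ran from 0.45 (Lss) to 1.49 (Insig1).

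Among the other enzymes of the sterol route, Ebp rose in the spleen. The lists that follow were drawn up from textbook knowledge of the pathway. Their counts are to be read against 17.1% of all tested genes higher and 9.77% lower in the spleen. In the lymph node these shares were 7.87% and 10.8%. Of the early mevalonate enzymes Mvk, Pmvk and Mvd, 0 of 3 tested passed in either tissue (list medians of 0.25 in spleen and -0.21 in lymph node). At an unadjusted limma p under 0.05, Pmvk was at 0.37 in the spleen and -0.38 in the lymph node. Of 7 late enzymes after lanosterol, 1 rose in the spleen, with a list median of 0.31. This was Ebp, the sterol isomerase, at 7.09 and 7.18 with GFP and 8.29, 8.27, 8.00 and 8.25 with oncogenic Vav1 (1.07, SE 0.12, limma adjusted p = 0.00048). Ebp kept its call with the intronic control covariate and without each single array. Nsdhl (0.42), Msmo1 (0.39), Hsd17b7 (0.31) and Sc5d (0.19) did not pass there. In the lymph node Sc5d, a desaturase of the late route, fell by 1.08 (SE 0.14, limma adjusted p = 0.00046), from 9.87 and 9.95 to 8.94 and 8.72, and Lbr, a nuclear envelope protein with sterol reductase activity, rose by 0.81 (SE 0.24, adjusted p = 0.038). Lbr was at 10.8 and 11.7 on the oncogenic Vav1 arrays. Its change was 0.34 without replicate 2 and 1.27 without replicate 1. The Lbr call was marginal: it was lost on leaving out any single oncogenic Vav1 spleen array, which did not move the change itself.

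Of 6 regulators of SREBP tested, 1 rose and 1 fell in the spleen, against 17.1% and 9.77% of all tested genes. In the lymph node 0 passed, against 7.87% higher and 10.8% lower. Srebf2, the gene of SREBP2, changed by -0.06 in the spleen (limma adjusted p = 0.84) and by 0.36 in the lymph node (adjusted p = 0.30). Its escort Scap was at 0.48 and -0.21 (limma adjusted p = 0.16 and 0.66), and Insig2, the second INSIG gene, at 0.01 and -0.32 (adjusted p = 0.97 and 0.47). In the spleen Pgrmc1, a membrane protein that binds heme, rose (0.36, limma adjusted p = 0.049) and Rnf145, a ubiquitin ligase of the sterol response, fell (-0.47, adjusted p = 0.0086). The list medians over 6 tested genes were -0.02 and -0.17. The lowest unadjusted p of the list for the lymph node was that of Pgrmc1, at -0.41 (limma adjusted p = 0.068).

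Genes of cholesterol uptake and transport inside cells changed in both directions in each tissue. Of 9 tested, 3 rose and 1 fell in the spleen (median 0.38), and 1 rose and 4 fell in the lymph node (median -0.40). The shares of all tested genes were 17.1% higher and 9.77% lower in the spleen, and 7.87% and 10.8% in the lymph node. Lrp8, a lipoprotein receptor, was at 6.14 and 6.29 in the GFP spleen and 7.47, 7.33, 7.03 and 7.03 in the oncogenic Vav1 spleen (1.00, SE 0.20, limma adjusted p = 0.0059). Npc2 and Lipa, which release cholesterol from lysosomes, rose by 0.82 and 0.65 (limma adjusted p = 0.014 and 0.015). Mylip, a ubiquitin ligase that removes lipoprotein receptors, fell in both tissues (-0.41 and -0.49, limma adjusted p = 0.016 and 0.017). Vldlr, the very low density lipoprotein receptor, was at 7.69 and 7.92 in the GFP lymph node and at 5.98 and 6.50 with oncogenic Vav1 (-1.56, SE 0.19, limma adjusted p = 0.00031). Npc2 (-1.11) and Npc1 (-0.65), the lysosomal exporters, fell there. Without oncogenic Vav1 lymph node replicate 2 they were at -0.68 and -0.38 (limma adjusted p = 0.0046 and 0.18). In the same tissue the sterol carrier Stard4 rose (0.93, limma adjusted p = 0.011). Scarb1 and Lrp1 passed in neither tissue.

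Of 7 efflux and sterol-sensing genes, 3 rose and 2 fell in the spleen (median 0.65), and 1 fell in the lymph node (median -0.54). Among all tested genes 17.1% were higher and 9.77% lower in the spleen, and 10.8% lower in the lymph node. Nr1h3, the oxysterol receptor LXR alpha, was at 7.87 and 7.66 in the GFP spleen and at 10.1, 9.97, 9.49 and 9.98 with oncogenic Vav1, a 4.36-fold rise (2.12, SE 0.40, limma adjusted p = 0.0045). In the lymph node its oncogenic Vav1 arrays were at 10.1 and 8.13 against 8.73 and 8.75, so the groups overlapped. Abcg1 (0.66) and Apoe (0.65), which export and carry cholesterol, rose in the spleen (limma adjusted p = 0.026 and 0.043, with Apoe at -0.12 under the intronic control covariate), and Cyp27a1, a sterol hydroxylase, fell (-0.91, limma adjusted p = 0.027). The exporter Abca1 fell in both tissues (-0.44 and -1.30, limma adjusted p = 0.036 and 0.00032), with the spleen change at -0.26 (adjusted p = 0.27) without GFP spleen replicate 2. Macrophage markers rose in the same spleen arrays, 8 of 11 up and 1 down, with list means of 8.29 and 8.34 with GFP and 9.31 to 9.49 with oncogenic Vav1. Their part in the change of Nr1h3 and Apoe was not tested.

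Fatty acid synthesis genes, driven by the sister factor SREBP1, fell in the lymph node. Of 11 tested, 8 fell and 1 rose there (median -0.99), and in the spleen 3 rose and 2 fell (median 0.10). Fasn, the fatty acid synthase, was at 11.3 and 11.4 in the GFP lymph node and at 8.80 and 8.91 with oncogenic Vav1 (-2.47, SE 0.23, limma adjusted p = 8.9e-05). Scd1, the desaturase that makes oleate, fell in both tissues (-1.23 in spleen and -2.14 in lymph node, limma adjusted p = 0.00056 and 3.5e-05). Acaca (-1.62), Elovl6 (-1.85), Me1 (-2.95), Acly (-0.99) and Acss2 (-0.84) fell in the lymph node as well. In the spleen the desaturases Fads1 (1.25, SE 0.14) and Fads2 (0.99, SE 0.22) and the elongase Elovl6 (0.77, SE 0.18) rose. Fads2 also rose in the lymph node (0.93, limma adjusted p = 0.030), at 0.61 (adjusted p = 0.096) without oncogenic Vav1 replicate 2. Of 9 genes of the isoprenoid branches, Dhdds of dolichol synthesis rose (0.51, limma adjusted p = 0.0065) and Pdss2 of ubiquinone synthesis fell (-0.72, adjusted p = 0.0096) in the spleen, and 0 passed in the lymph node. Over all 52 pathway genes tested besides the 8, 12 rose and 7 fell in the spleen (23.1% and 13.5%, against 17.1% and 9.77% of all tested genes). In the lymph node 3 rose and 14 fell (5.77% and 26.9%, against 7.87% and 10.8%). Of the 19 spleen calls, 5 remained with the intronic control covariate (Ebp, Elovl6, Fads1, Fads2 and Scd1), 6 without GFP replicate 1, 7 without GFP replicate 2 and 12 with replicate numbers blocked. Of the 17 lymph node calls, 5 remained with the lymph node arrays alone (Abca1, Acaca, Elovl6, Fasn and Scd1), 11 without GFP lymph node replicate 1 and 10 without replicate 2.

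**Figure D3:**
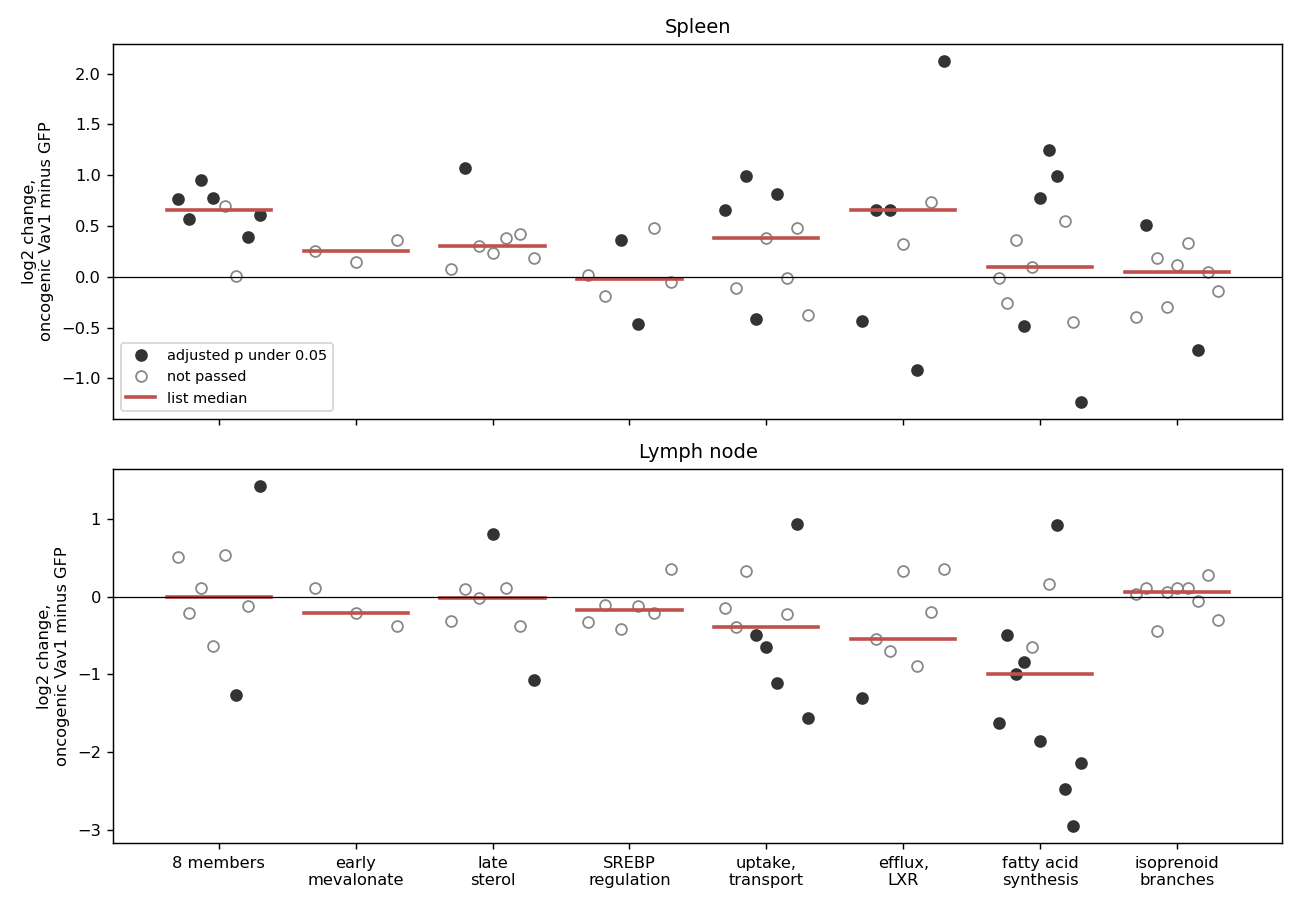
Limma log2 change (oncogenic Vav1 minus GFP) of each tested gene in the 8 members and in 7 further lists, in spleen and lymph node, with filled points for adjusted p under 0.05 and a line for the list median. The median of the 8 members is 0.66 in spleen and 0.00 in lymph node, and that of fatty acid synthesis is 0.10 and -0.99; the vertical scales differ.

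Markers of other cells moved with the construct on the same arrays. Their counts are to be read against 17.1% of all tested genes higher and 9.77% lower in the spleen. In the lymph node these shares were 7.87% and 10.8%. In the spleen 23 of 23 proliferation genes rose, with list means of 7.25 and 7.62 with GFP and 9.06 to 9.69 with oncogenic Vav1. Also in the spleen 10 of 11 neutrophil genes rose (6.05 and 6.18, against 8.84 to 9.07) and 7 of 9 B cell genes fell (11.10 and 11.03, against 9.75 to 10.1). Red cell genes were at 7.23 and 8.35 against 8.50 to 9.95, with 0 of 10 past the threshold. In the lymph node 23 of 23 proliferation genes and 10 of 10 red cell genes rose. The red cell mean was 6.23 and 6.13 with GFP and 8.63 and 10.9 with oncogenic Vav1. Neutrophil genes (9 of 11, median 2.80) and plasma cell genes (6 of 8, median 0.78) also rose there. T cell genes fell in the lymph node for 5 of 11 (median -0.99). Their list means there were 9.48 to 9.49 with GFP and 7.80 to 8.86 with oncogenic Vav1. The list holds Cd8a, a marker of CD8 T cells (8.25 to 10.4 over the arrays), so it does not mark the labelled CD4+ cells alone. In the spleen 2 of 11 T cell genes rose and 1 fell, near the shares of all tested genes. In the interaction 7 of 11 were lower (median -1.53), against 7.11% of all tested genes.

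Fat cell genes were highest in the GFP lymph node, where Insig1, Hmgcs1 and Fasn were highest. Fdft1 also had its highest group mean there, while Sqle, Cyp51 and Idi1 had their lowest. Lss and Fdps had their highest in the oncogenic Vav1 spleen, where fat cell genes were lowest. The fat cell mean over 7 genes was 11.3 and 11.3 in the GFP lymph node and 7.75 and 9.20 in the oncogenic Vav1 lymph node. It was 6.64 and 6.12 in the GFP spleen and 4.97 to 5.20 in the oncogenic Vav1 spleen. Of these fat cell genes 7 of 7 fell in the lymph node, against 10.8% of all tested genes. Of 5 brown fat genes (Ucp1, Cidea, Elovl3, Cox8b and Dio2), all 5 were near background in both spleen groups and in the oncogenic Vav1 lymph node, and 1 (Dio2) in the GFP lymph node. Stroma genes fell in 5 of 6 cases and endothelial genes in 5 of 8 in the lymph node, against the same 10.8%. The part of T cells or of fat, red, neutrophil, plasma or dividing cells in the sterol gene changes was not tested. Oncogenic Vav1 lymph node replicate 2 had the higher fat cell, red cell and proliferation mean of its pair and the higher Idi1, while Hmgcs1, Cyp51 and Fdps were lower in it.

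**Figure D4:**
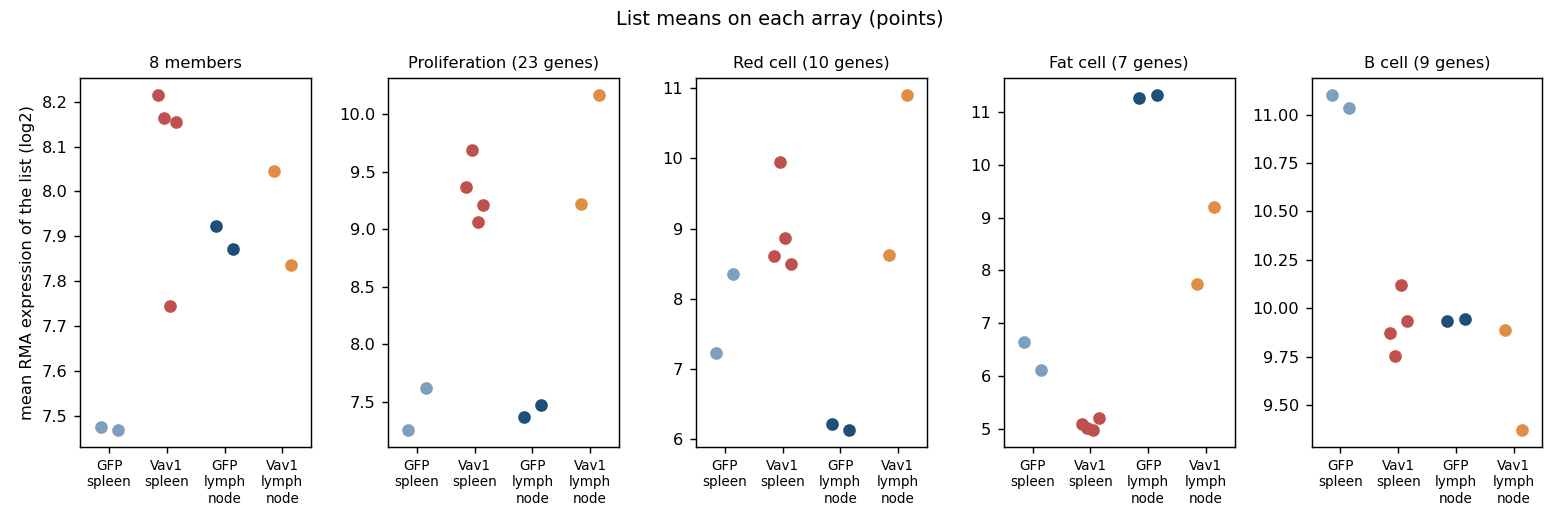
Mean RMA expression (log2) on each array, as points, of the 8 members and of the proliferation, red cell, fat cell and B cell lists; each panel has its own scale. The fat cell mean is 11.3 on both GFP lymph node arrays and 5.20 or lower on the oncogenic Vav1 spleen arrays, and the mean of the members is lowest on the GFP spleen arrays (7.48 and 7.47).

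The genes whose levels followed the mean of the 8 most closely over the 10 arrays were Gla, a lysosomal galactosidase (Pearson r = 0.97), Stambp (0.97), Vps29 (0.96), Lxn (0.96) and Slc25a5, a mitochondrial nucleotide carrier (0.96), out of 12853 genes searched. The points share animals and fall into 4 groups, so r is given as a measure of likeness alone. Since they were picked for following that mean on the same arrays, their changes are a description of the choice: 1.78, 0.78, 0.89, 0.88 and 0.65 in the spleen and 0.26, -0.09, -0.02, -0.03 and 0.15 in the lymph node.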

How the data were processed

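Per the submitters' processing notes, the deposited values are log2 levels that the authors made with RMA (R 3.6.3). Filters and genome build are not given in the sources used here. GEO's platform annotation gave 1 gene symbol to 19572 of the 29129 probe sets. The probe set with the highest mean stood for each of 19505 genes, and 13393 that exceeded the 40th percentile of the array on at least 2 arrays were tested. Levels were compared within a gene. No depth applies to arrays, and the number of arrays limits the precision. Nothing says that the arrays of a group came from separate transductions, so p-values measure the spread between these arrays. The 10 arrays came from 7 animals, and the spleen and lymph node fits took them as independent.

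Models were fitted in R 4.3.3 with limma 3.58.1, using statmod 1.5.0 for blocks (eBayes with trend, two-sided, Benjamini-Hochberg over all tested genes). The spleen and lymph node effects came from a model of the 4 groups over all 10 arrays. The effect over both tissues, the tissue effect and the interaction had the animal as a random block (block correlations -0.35, -0.35 and -0.11). Over both tissues 31.7% of tested genes were called with this block and 22.1% without it. Fits were tested on simulated data. The replicate numbers of the titles do not pair arrays by animal, since equal numbers of GFP and oncogenic Vav1 carry different animal names. The labels do not say whether equal numbers share a transduction or an array batch.

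The genes, lists, tests and alternatives were chosen with earlier results of these data known. All 8 genes are named. From the other pathway lists, any gene that passed could be named and up to 4 others with the smallest p. Of the pathway genes listed, 52 had a matching symbol, and the others were not analysed here. Marker lists were T cell, B cell, plasma cell, neutrophil, macrophage, red cell, platelet, fat cell, brown fat, stroma, endothelium and proliferation. Alternatives changed the arrays used, the block, the fold threshold, the covariate, the filter, the normalization, how probe sets were combined, and the variance model and weights.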

Additional observations from a re-analysis of the deposited data

Results flagged for a closer look

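Sqle in the oncogenic Vav1 spleen had an array far from the others: replicate 3 lay apart by 0.835 of the group's whole range. Of the 8 genes examined in this group of 4 arrays 1 (Sqle) stood out by this measure, which chance also gives in a small share of groups. The Sqle change without that array was 0.77.

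The construct effect differed between tissues, by the limma interaction test, for 2 of the 8 genes and 15 of the 52 other pathway genes tested. Each was lower in the lymph node effect than in the spleen effect, a direction also found over all tested genes, of which 7.11% were lower and 0.933% higher. The differences were -1.43 for Hmgcs1 and -1.29 for Insig1. Among late sterol and regulatory genes they were -0.97 for Ebp, -1.27 for Sc5d and -0.77 for Pgrmc1. For uptake and transport genes they were -1.05 for Npc1, -1.93 for Npc2 and -1.18 for Vldlr, and for efflux genes -0.86 for Abca1, -1.21 for Abcg1 and -1.36 for Apoe. Fatty acid genes had -3.03 for Fasn, -2.61 for Elovl6, -1.62 for Acaca, -1.34 for Acly, -1.07 for Fads1 and -0.93 for Scd1. Not all were equally firm. Of the 15 pathway calls, 9, 15, 11 and 10 remained without oncogenic Vav1 spleen replicates 1, 2, 3 and 4. The 9 were Acaca, Acly, Ebp, Elovl6, Fads1, Fasn, Npc2, Sc5d and Vldlr. With the intronic control covariate 11 remained. Leaving out each array in turn, Abcg1 ran from -1.59 to -0.79 and Apoe from -1.82 to -0.89.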

How the results depend on the processing

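Leaving out each array in turn, the number of the 8 genes past the threshold ran from 1 to 7 in spleen (6 in the full fit), 2 to 4 in lymph node (2), 1 to 6 over both tissues (5), 1 to 4 for the interaction (2) and 0 to 0 between tissues (0). Over all tested genes the share called in these fits ran from 8.13% to 41.2%, 7.77% to 34.7%, 15.8% to 45.6%, 2.87% to 31.4% and 0.0299% to 7.69%. With the intronic control value as a covariate it was 0 in spleen and 1 for the interaction (6.84% and 7.61% of all tested genes). It was 3 over both tissues with a 1.5-fold threshold (14.8%), 6 for the interaction without both arrays of ONCO3 (20.4%), and 5 between tissues with array weights (20.5%). Every other alternative left these counts within 1.5 times of the full fit. With the replicate number as a block, which pairs no animals, the counts were 6, 2, 6, 2 and 0. The shares of all tested genes called were 20%, 15.9%, 54.8%, 6.23% and 0.0224%. Over both tissues this share was 31.7% in the full fit. With this block Lss was lost and Idi1 gained in spleen. Deviations of same-numbered arrays correlated at 0.04 and 0.30 in spleen and -0.06 in lymph node.

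Of 896 values of the 8 genes under alternatives, 785 kept direction and side of the threshold, 61 lost and 33 gained the call, and 17 changed sign. Only Hmgcs1 over both tissues with the covariate passed after changing sign (-0.44, limma adjusted p = 0.013, against 0.12). With the covariate the sign also turned for Insig1 in spleen (-0.070), Fdft1 over both tissues (-0.17), Cyp51 in the interaction (0.45), and Fdft1 and Fdps between tissues (-0.063 and -0.049). Of the other pathway genes, Apoe in spleen changed sign with it (-0.12). Insig1 in spleen was -0.16 with quantile normalization and -0.028 with median centring, and Hmgcs1 over both tissues -0.0045 with quantile normalization. Leaving out each array in turn, values ran across 0 for Insig1 in spleen (-0.051 to 0.073), Fdps in lymph node (-0.18 to 0.41), Hmgcs1 over both tissues (-0.085 to 0.37), Cyp51 in the interaction (-0.54 to 0.064) and Idi1 in the interaction (-0.52 to 0.23). The causes were not tested.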
